A study of Mus musculus with 6 samples.

Results

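Glutathione transferases and the antioxidant genes around the transcription factor NRF2 were described in lung tumors of mice with and without preceding bleomycin-induced fibrosis. The set was chosen by gene name among protein-coding genes: the Gst, Mgst, Gpx and Prdx families with a numbered symbol, and single genes of the NRF2 pathway, namely Nqo1, Hmox1, Gclc, Gclm, Gss, Gsr, Txn1, Txnrd1, Srxn1, Slc7a11, G6pdx, Nfe2l2 and Keap1. It held 52 of the 31130 genes in the count tables. Of these, 25 were glutathione transferases, 14 were glutathione peroxidases or peroxiredoxins, 11 were enzymes or a transporter induced by NRF2, and 2 were Nfe2l2, which encodes NRF2, and Keap1. Tumor tissue was taken on day 21 from the lung cancer model (LC, 3 samples) and from the model that combines it with interstitial pneumonia (IP + LC, 3 samples). Mice of both groups bore tumors of Lewis lung carcinoma (LLC), an established line from a mouse lung tumor that here makes enhanced green fluorescent protein, of which 500000 cells were placed in the left lung on day 14. The IP + LC group alone received bleomycin, a chemotherapy agent used in mice to provoke lung injury with scarring, at 2.0 mg/kg body weight by oropharyngeal aspiration before the cells were injected. The samples were labelled WT, and the study's methods name female mice aged 6 to 8 weeks, and the study used C57BL/6 J hosts for LLC cells. Whether the LC mice received the vehicle is not given in the sources used here. The labels do not state that each sample of a group came from a separate mouse, so p-values measure the spread between these samples.

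Glutathione transferases join the tripeptide glutathione to reactive chemicals and to products of lipid oxidation, and they are abundant in liver and in airway and alveolar epithelium. NRF2 is held by KEAP1, which marks it for degradation, until oxidants or electrophiles modify KEAP1. NRF2 then pairs with small MAF proteins at antioxidant response elements and raises transcription of genes for glutathione synthesis, thioredoxin recycling, NADPH supply and heme breakdown. Several transferases are also known NRF2 targets.

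Of the 16 transferases with enough counts to be tested, 14 were lower in IP + LC than in LC and none was higher, at an edgeR adjusted p below 0.1. One of the 14, Gstm4, reached the count filter through the LC libraries alone, and without it 13 of 15 were lower. Of the 11 NRF2-induced genes, all tested, 3 were higher, namely Txnrd1, Hmox1 and G6pdx, and none was lower. The count of 3 became 6 without LC replicate 1 and 1 without LC replicate 2, IP + LC replicate 2 or IP + LC replicate 3, and of these genes Txnrd1 alone was called in every alternative. Calls over all genes moved as well. Without LC replicate 1 they were 6691 of 11748 genes, 49.7% of them higher. In the other 3 fits, in the order named, they were 2585 of 11530, 2265 of 11787 and 3137 of 11770. Of those calls 39.3%, 39.6% and 41.7% were higher. The 12 tested peroxidases and peroxiredoxins included 1 higher gene, Prdx5, and 5 lower genes, Gpx2, Gpx3, Gpx4, Gpx7 and Prdx6. Among all 11240 genes tested, 16.8% were called higher and 19.6% lower, 36.4% in all. The median log2 fold change was −1.40 for the transferases, −0.29 for the peroxidases and 0.66 for the NRF2-induced genes, against 0.02 for all genes tested. The peroxidase median was −0.08 without LC replicate 1 and −0.41 without LC replicate 2. Nfe2l2 and Keap1 themselves did not pass the test.

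The whole libraries set limits on these values. They held 592733 to 1631066 UMIs, counts of single RNA molecules, and LC replicate 1 had the fewest. That library also stood apart from the other LC libraries. Its correlation with them across tested genes was 0.84 and 0.80, against 0.96 between LC replicates 2 and 3. With IP + LC replicates 1, 2 and 3 this library correlated at 0.81, 0.80 and 0.82, so it was about as close to them. Its summed level of 12 proliferation genes was 1095 CPM (UMIs per 1000000 after TMM scaling, a correction for library composition), against 193.5 and 179.7 CPM in the other LC tumors and 1462 to 1744 CPM in IP + LC. Values without LC replicate 1 are therefore given beside many of the results that it moved. The labels call the samples lung cancer cells, but lung epithelium was present in all 6: Scgb1a1, the club cell secretoglobin, stood at 38370 to 44320 CPM in LC and 2678 to 5961 CPM in IP + LC. In bulk tissue, fewer cells of a type and less RNA per cell cannot be told apart.

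The DNA in front of the genes was searched for the core of the antioxidant response element, TGACNNNGC on either strand, because the comparison sets NRF2-induced genes against transferases. RefSeq promoters of build GRCm38.p6, 250 bases before to 50 bases after each start, were found for 45 of the 52 members. The core was present in 4 of 32 transferase promoters (12.5%), in 4 of 10 promoters of NRF2-induced genes (40.0%), each of a different gene, in 1 of 15 peroxidase promoters (6.67%) and in 12.4% of all 32851 promoters. The 10 promoters belong to 8 NRF2-induced genes, since Gclc, Gsr and Hmox1 had no entry. In Srxn1 the core lay after the start. A match is a description of letters, and response elements farther from the start lie outside these windows. The 120-base stretches with the core in capitals are shown for 2 NRF2-induced genes and for the transferase Gsta3, each written 5′ to 3′ on the strand of its gene and lying before the start as RefSeq places it.
Gclm, chr3:122245367-122245486, plus strand: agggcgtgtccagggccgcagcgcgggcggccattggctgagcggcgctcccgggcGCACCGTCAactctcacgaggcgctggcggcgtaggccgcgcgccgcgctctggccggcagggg
Txnrd1, chr10:82859058-82859177, plus strand: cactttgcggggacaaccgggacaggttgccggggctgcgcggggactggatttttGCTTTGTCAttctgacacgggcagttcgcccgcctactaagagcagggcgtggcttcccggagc
Gsta3, chr1:21240408-21240527, plus strand: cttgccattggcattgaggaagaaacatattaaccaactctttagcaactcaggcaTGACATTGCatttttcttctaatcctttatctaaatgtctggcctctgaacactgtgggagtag

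For 4 further members the core is shown with 10 bases on each side, again in capitals. Gstm5 and Mgst1 are transferases that were lower in IP + LC, G6pdx is an NRF2-induced gene that was higher, and Nfe2l2 encodes NRF2 itself.
G6pdx, chrX:74428919-74428947, minus strand: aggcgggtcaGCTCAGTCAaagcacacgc
Mgst1, chr6:138140461-138140489, plus strand: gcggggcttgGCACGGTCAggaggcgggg
Gstm5, chr3:107895802-107895830, plus strand: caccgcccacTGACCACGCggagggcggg
Nfe2l2, chr2:75704885-75704913, minus strand: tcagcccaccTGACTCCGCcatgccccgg
In GENCODE M21 the cores of G6pdx and Mgst1 lie in an annotated exon and that of Txnrd1 in an intron. The stretch of Txnrd1 is from 1 of its 3 RefSeq promoters and the site of Mgst1 from 1 of 2, and the others of these genes held no core. Of the called members with an entry, Txnrd1 and G6pdx among the higher genes and Gsta3, Gstm5 and Mgst1 among the lower genes held the core. Gstm1, Gstt1 and Gstk1, 3 of the transferases with the largest decreases, did not hold it in these windows. In Prdx1 the core overlapped a site TGANTCA of the factor AP-1, which 7.81% of all promoters held.

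The mu-class transferases, cytosolic enzymes encoded side by side on chromosome 3, were lower wherever they could be tested. In what follows, values are given for replicates 1, 2 and 3 in that order. Gstm1 (chr3:108012255-108017973 in GENCODE M21 on GRCm38) was at 486, 723 and 581 CPM in LC and at 119, 57.2 and 133 CPM in IP + LC. It was 5.81-fold lower in IP + LC (log2 fold change −2.54 ± 0.33 SE, edgeR adjusted p = 0.00143), the largest decrease of any member tested. A pseudogene, Gstm2-ps1, matches 13.2% of the last 500 bases of its transcript, and with both rows summed the log2 fold change was −2.55 (adjusted p = 0.00143). Its neighbor Gstm2 (chr3:107981702-107986453) was at 227, 236 and 221 CPM in LC and at 87, 64.8 and 90.8 CPM in IP + LC. The LC tumors lay close together for Gstm2 (mean 228 ± 7.36 CPM, SD, n = 3), and all exceeded the IP + LC tumors (mean 80.8 ± 14 CPM, SD, n = 3). Gstm2 was 2.82-fold lower (edgeR adjusted p = 0.00169). Gstm5, which in mice is best known from brain and testis, was at 39.6, 26.6 and 19.5 CPM in LC and at 13.1, 11.1 and 10.9 CPM in IP + LC, 2.33-fold lower (edgeR adjusted p = 0.022). Gstm4 had few molecules, with 6, 16 and 11 UMIs in LC and 5, 4 and 4 UMIs in IP + LC, equal to 10.3, 12.5 and 9.32 CPM and 3.62, 2.33 and 2.9 CPM. It passed the count filter through the LC libraries alone, so its 3.62-fold lower level (edgeR adjusted p = 0.00886) belongs to a gene that could enter the test only by being high in LC. Gstm3, Gstm6 and Gstm7, the other mu genes of this cluster, had at most 9 UMIs in any tumor and were not tested.

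The alpha-class genes gave the same direction. Gsta3, whose mouse enzyme detoxifies the epoxide of aflatoxin, was at 226, 339 and 296 CPM in LC and at 65.3, 24.5 and 63.2 CPM in IP + LC. It was 5.67-fold lower (log2 fold change −2.50 ± 0.36 SE, edgeR adjusted p = 0.00205), with IP + LC replicate 2 the lowest tumor. This is the transferase whose promoter stretch is printed above with the response element core. Gsta4, which clears aldehydes made when lipids oxidize, was at 131, 185 and 152 CPM in LC and at 53.7, 36.2 and 80.6 CPM in IP + LC. It was 2.77-fold lower (edgeR adjusted p = 0.0082). Gsta1 and Gsta2, whose transcripts are near-identical to each other, reached at most 6 UMIs in a tumor.

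Theta, zeta and kappa transferases were lower as well. Gstt1, which acts on small halogenated compounds, was at 112, 130.1 and 114 CPM in LC and at 30.4, 28.6 and 34.1 CPM in IP + LC. Both groups were narrow, with means of 118 ± 10.03 CPM and 31.1 ± 2.81 CPM (SD, n = 3 each). The decrease was 3.82-fold, and its edgeR adjusted p of 0.000859 was the smallest of any member. Gstt3, next to it on chromosome 10, was at 37.9, 68.2 and 55.9 CPM in LC and at 29.7, 21.6 and 23.2 CPM in IP + LC, 2.23-fold lower (edgeR adjusted p = 0.0123). Gstt2 in the same cluster was at 25.8, 27.4 and 43.2 CPM in LC and at 18.9, 21 and 16 CPM in IP + LC, a difference of 1.75-fold (edgeR adjusted p = 0.0575) that was lost in 8 of 14 alternatives. Among these were the fits without LC replicate 3 (adjusted p = 0.223) and without IP + LC replicate 1, 2 or 3 (adjusted p = 0.153, 0.132 and 0.180). Gstk1, the kappa enzyme of mitochondria and peroxisomes, was at 67.2, 119 and 94.1 CPM in LC and at 25.4, 12.3 and 30.5 CPM in IP + LC, 4.22-fold lower (edgeR adjusted p = 0.00362). Gstz1, the zeta enzyme of tyrosine breakdown, was at 37.9, 68.9 and 51.7 CPM in LC and at 24.6, 18.1 and 21.8 CPM in IP + LC, 2.53-fold lower (edgeR adjusted p = 0.00722). The groups did not overlap for any of these 5 genes.

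The omega-class and membrane-bound genes showed smaller changes, with 1 exception. Mgst1, a membrane enzyme of the endoplasmic reticulum and the outer mitochondrial membrane, was at 504, 813 and 878 CPM in LC and at 207, 155 and 229.5 CPM in IP + LC. It was 3.73-fold lower (log2 fold change −1.90 ± 0.27 SE, edgeR adjusted p = 0.00197). Gsto1, which reduces dehydroascorbate and mixed disulfides, was at 353, 356 and 299 CPM in LC and at 176, 183 and 227 CPM in IP + LC. It was 1.72-fold lower (edgeR adjusted p = 0.0209), but not without IP + LC replicate 1 or 2 (adjusted p = 0.110 and 0.114). Mgst3 was at 91.3, 103 and 89 CPM in LC and at 52.9, 47.9 and 73.3 CPM in IP + LC, 1.64-fold lower (edgeR adjusted p = 0.0435). That call was lost without LC replicate 2 (adjusted p = 0.150) and without IP + LC replicate 1 or 2 (adjusted p = 0.174 and 0.206).

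Only 2 tested transferases did not pass. Gstp1, the pi-class enzyme often abundant in tumors, ranged from 28 to 41.3 CPM in LC and from 34.4 to 37.8 CPM in IP + LC. Its log2 fold change was 0.15 with a 95% confidence interval from −0.34 to 0.65 (edgeR adjusted p = 0.635). All of the last 500 bases of its transcript are near-identical to Gstp2 or Gstp-ps, so reads could be split between these genes. The sum of the Gstp1 and Gstp2 rows, without Gstp-ps, gave 0.12 (edgeR adjusted p = 0.705). Mgst2, an enzyme of leukotriene synthesis, ranged from 32.2 to 82.7 CPM in LC and from 33.4 to 44.2 CPM in IP + LC, with the highest value in LC replicate 1 (log2 fold change −0.36, 95% confidence interval −1.12 to 0.40, edgeR adjusted p = 0.458). Without that tumor the log2 fold change was 0.08 for Mgst2 and 0.30 for Gstp1. The 9 untested transferases, Gsta1, Gsta2, Gstm3, Gstm6, Gstm7, Gsto2, Gstp2, Gstp3 and Gstt4, had a highest count of 2 to 9 UMIs in any tumor. In 14 of the 16 tested transferases, Gstm4 among them, every IP + LC tumor was below every LC tumor, as in 21.5% of all genes tested. The calls of 11 of the 14 held in every alternative that gave them a value, and all 14 kept their sign.

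**Figure D1:**
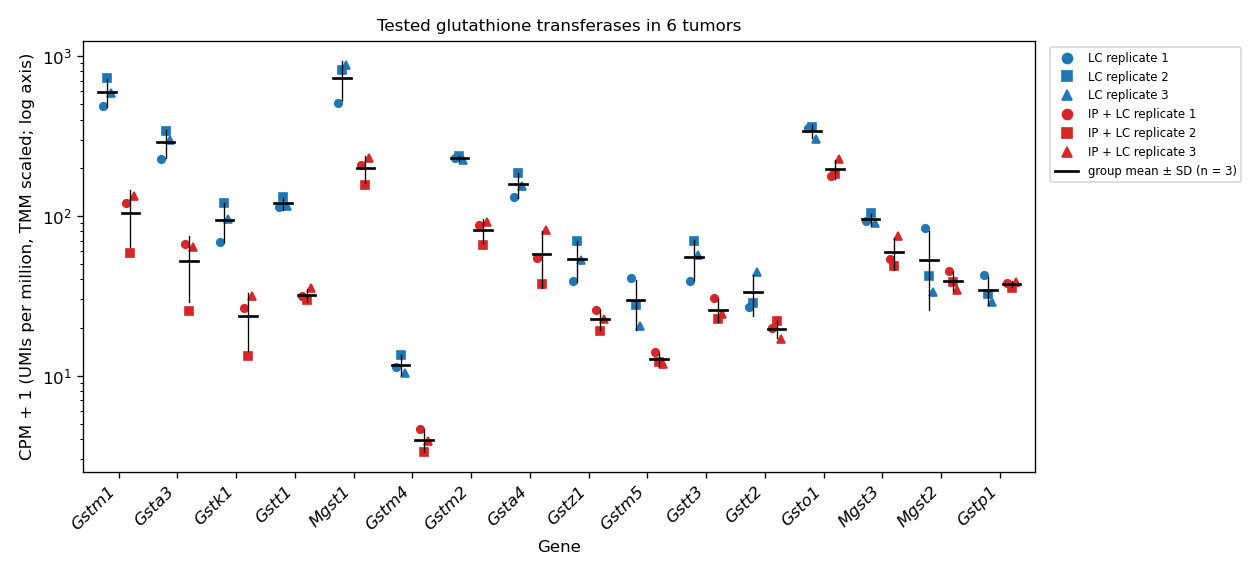
CPM + 1 on a log axis for the 16 tested transferases, ordered by log2 fold change, with 1 point per tumor (blue LC, red IP + LC, shape for replicate) and bars for the mean ± SD of 3 tumors. The red points lie below the blue points for 14 genes and overlap them for Mgst2 and Gstp1.

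The NRF2-induced genes were led by thioredoxin reductase. Txnrd1 (chr10:82833951-82897712), which keeps thioredoxin reduced with NADPH, was at 77.5, 69.7 and 72 CPM in LC and at 177, 198 and 165 CPM in IP + LC. The LC mean was 73.1 ± 3.99 CPM and the IP + LC mean 180.1 ± 17 CPM (SD, n = 3 each). It was 2.47-fold higher (log2 fold change 1.31 ± 0.19 SE, edgeR adjusted p = 0.00215), and it was the only NRF2-induced gene called in every alternative. Thioredoxin itself, Txn1, was at 994, 536 and 497 CPM in LC and at 887, 869.7 and 778 CPM in IP + LC. LC replicate 1 was the highest of the 6 tumors and the other LC tumors were the lowest (log2 fold change 0.33, 95% confidence interval −0.32 to 0.97, edgeR adjusted p = 0.427). Without LC replicate 1, Txn1 was called higher, with a log2 fold change of 0.72 (adjusted p = 0.000396). Sulfiredoxin, Srxn1, which repairs overoxidized peroxiredoxins, ranged from 15.2 to 51.7 CPM in LC and from 50.03 to 56.6 CPM in IP + LC. LC replicate 1 lay within the IP + LC range and above the other LC tumors. Its log2 fold change of 0.85 missed the limit (edgeR adjusted p = 0.111) and passed in 5 alternatives: library size only, no filter beyond 1 UMI, at least 10 UMIs in every library, limma voom and, at 1.30 (adjusted p = 0.000461), without LC replicate 1.

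Heme breakdown and NADPH supply gave the other calls. Hmox1, heme oxygenase, was at 74, 45.4 and 31.4 CPM in LC and at 83.4, 77.6 and 102 CPM in IP + LC. It was 1.81-fold higher (edgeR adjusted p = 0.0646), with the groups apart by the small step between LC replicate 1 and IP + LC replicate 2. Leaving out any tumor but LC replicate 1 ended the call, with adjusted p from 0.136 to 0.199, and without LC replicate 1 it was 0.000249. G6pdx, the X-linked glucose-6-phosphate dehydrogenase that feeds NADPH, was at 84.4, 63.5 and 56.8 CPM in LC and at 102, 103 and 128 CPM in IP + LC. It was 1.64-fold higher (edgeR adjusted p = 0.0419). This call was lost without LC replicate 2 (adjusted p = 0.148), LC replicate 3 (0.129), IP + LC replicate 2 (0.111) or IP + LC replicate 3 (0.144). Its response element core is shown above.

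Genes of glutathione synthesis and recycling did not move as one. Gsr, glutathione reductase, was at 27.6, 73.6 and 78 CPM in LC and at 96.4, 101 and 95.1 CPM in IP + LC. Every IP + LC tumor was above every LC tumor, but LC replicate 1 was far below the other LC tumors (log2 fold change 0.66, 95% confidence interval −0.06 to 1.38, edgeR adjusted p = 0.158). Without that tumor Gsr was called higher, at 0.38 (adjusted p = 0.0505), as in 2 other alternatives, library size only and no filter beyond 1 UMI. Slc7a11, the cystine importer that supplies glutathione synthesis, had 0, 5 and 12 UMIs in LC and 15, 26 and 16 UMIs in IP + LC. The count of 0 in LC replicate 1 allows up to 5.17 CPM at that depth, and the log2 fold change of 1.19 had a 95% confidence interval from −0.09 to 2.48 (edgeR adjusted p = 0.152). Without LC replicate 3 it was called higher, at 2.21 (adjusted p = 0.0553), as in 3 other alternatives, and without LC replicate 1 it was 0.87 (adjusted p = 0.106). Gclc, the catalytic subunit of glutamate-cysteine ligase, was at 122, 188 and 167 CPM in LC and at 127, 88.7 and 155 CPM in IP + LC (log2 fold change −0.38, 95% confidence interval −0.97 to 0.21, edgeR adjusted p = 0.317). Without LC replicate 1 it was called lower, at −0.53 (adjusted p = 0.0317). Gclm, the modifier subunit of the same ligase, was at 43, 83.8 and 60.2 CPM in LC and at 80.5, 73 and 80.6 CPM in IP + LC (log2 fold change 0.29, 95% confidence interval −0.27 to 0.86, edgeR adjusted p = 0.418). Thus the subunits had point estimates of opposite sign, and each interval included 0. For Gclm the log2 fold change was 0.12 without LC replicate 1 and 0.57 without LC replicate 2. Gss, glutathione synthetase, ranged from 16.4 to 41.3 CPM in LC and from 17.5 to 24.7 CPM in IP + LC (log2 fold change −0.37, edgeR adjusted p = 0.454). The highest value was in LC replicate 1, and the log2 fold change of Gss was −0.048 without that tumor and −0.68 without LC replicate 2. Nqo1, the quinone reductase often used as a readout of NRF2, was low in all tumors, from 7.05 to 12.1 CPM in LC and from 7 to 9.44 CPM in IP + LC. Its log2 fold change was −0.21 (edgeR adjusted p = 0.716), −0.07 without LC replicate 1 and −0.43 without LC replicate 2.

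In total, 8 of the 11 NRF2-induced genes had a positive and 3 a negative log2 fold change, and 5 had every IP + LC tumor above every LC tumor, against 21.6% of all genes tested. Among the 5 is Slc7a11, which reached the count limit in 1 LC and 3 IP + LC libraries. It could enter the test only by being high in IP + LC. The count of 3 higher genes depended on which tumors entered. It rose to 6 without LC replicate 1, with 1 gene, Gclc, lower. In that fit 6691 of 11748 genes were called, 49.7% of them higher. The count was 1 without LC replicate 2, IP + LC replicate 2 or IP + LC replicate 3. Calls over all genes were then 2585 of 11530, 2265 of 11787 and 3137 of 11770, with 39.3%, 39.6% and 41.7% of them higher. The count was also 6 when only library size was used for scaling, which moved the median of all genes from 0.02 to 0.18. With that scaling 4320 of 11240 genes were called, 58.3% of them higher.

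**Figure D2:**
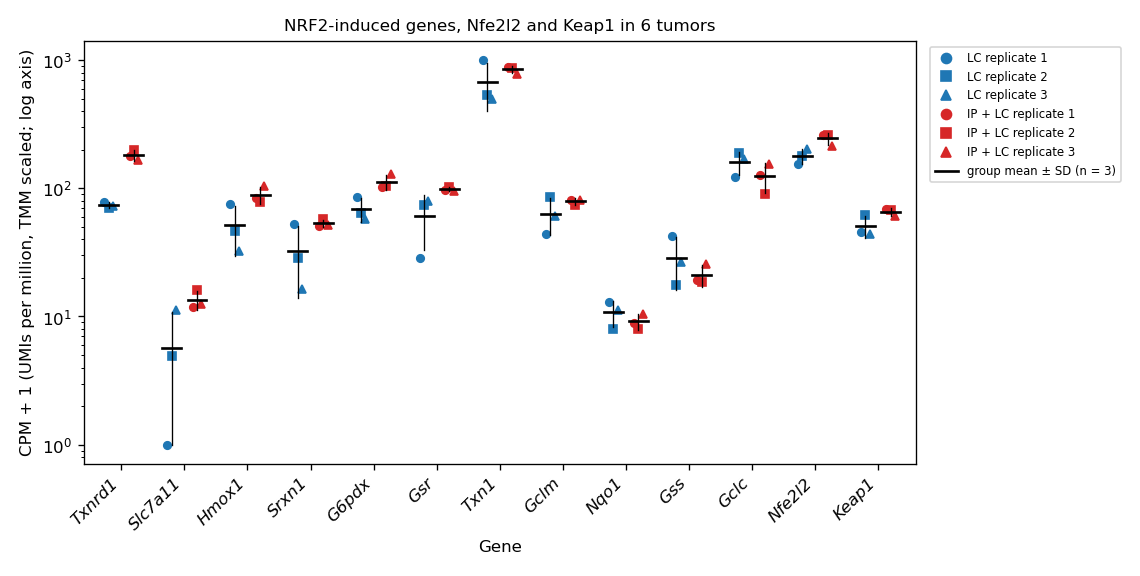
CPM + 1 on a log axis for the 11 NRF2-induced genes, Nfe2l2 and Keap1, with 1 point per tumor (blue LC, red IP + LC, shape for replicate) and bars for the mean ± SD of 3 tumors. For Txn1, Srxn1 and Hmox1 the circle of LC replicate 1 lies above the other LC points, and for Gsr and Slc7a11 it lies below them.

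Neither NRF2 nor KEAP1 passed the test at the RNA level. Nfe2l2 was at 155, 176 and 201 CPM in LC and at 259, 258 and 214 CPM in IP + LC. All IP + LC tumors were above all LC tumors, while the log2 fold change of 0.45 did not pass (95% confidence interval 0.0016 to 0.91, edgeR adjusted p = 0.125). It was called higher in 3 of 14 alternatives, the fit without LC replicate 1 among them. Keap1 was at 44.8, 61.1 and 43.2 CPM in LC and at 68.2, 66.5 and 59.5 CPM in IP + LC (log2 fold change 0.37, edgeR adjusted p = 0.234). More than 10% of the exonic bases of Keap1 and of 7 other tested members, G6pdx, Gss, Prdx2, Prdx5, Gstm5, Gstt3 and Gstz1, overlap other genes, and whether the counting used the strand is not given in the sources used here. NRF2 is controlled mainly by protein stability, which these RNA counts do not measure. Of 15 partners and regulators of NRF2, 14 were tested, 2 were higher and none was lower, a share of higher genes no greater than the 16.8% of all genes tested. Mafg, a small MAF partner of NRF2, was at 15.5, 32.1 and 36.4 CPM in LC and at 76.9, 75.9 and 94.4 CPM in IP + LC, 2.8-fold higher (edgeR adjusted p = 0.00602). Syvn1, a ubiquitin ligase of the endoplasmic reticulum, was at 37.9, 25.1 and 18.6 CPM in LC and at 73.2, 54.9 and 46.5 CPM in IP + LC, 2.24-fold higher (edgeR adjusted p = 0.0202).

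Among the peroxidases, which remove hydrogen peroxide and lipid peroxides, the largest difference was in the secreted plasma enzyme. Gpx3 was at 1099, 1520 and 1225 CPM in LC and at 301, 357 and 485 CPM in IP + LC. It was 3.36-fold lower (log2 fold change −1.75 ± 0.25 SE, edgeR adjusted p = 0.00197). Gpx7, of the endoplasmic reticulum, was at 29.3, 26.6 and 24.6 CPM in LC and at 15.2, 13.4 and 11.6 CPM in IP + LC, 1.97-fold lower (edgeR adjusted p = 0.0209). Gpx2, an enzyme of epithelia, was at 24.1, 36 and 27.1 CPM in LC and at 23.2, 9.92 and 16 CPM in IP + LC, 1.84-fold lower (edgeR adjusted p = 0.0843). The groups were separated by less than 1 CPM, and the Gpx2 call was lost in 8 of 14 alternatives, including those without LC replicate 2 or 3 (adjusted p = 0.297 and 0.129) and without IP + LC replicate 2 or 3 (adjusted p = 0.282 and 0.197). Gpx4, which protects membranes from lipid peroxides and guards against ferroptosis, was at 186, 109.7 and 136 CPM in LC and at 71.8, 82.9 and 85.7 CPM in IP + LC. It was 1.78-fold lower (edgeR adjusted p = 0.0303), and not called without IP + LC replicate 1 or 2 (adjusted p = 0.139 and 0.120). The end of its transcript is near-identical to the pseudogene Gpx4-ps2, whose row held 151 to 246 UMIs per tumor and was itself lower (log2 fold change −0.60, edgeR adjusted p = 0.0621). With both rows summed the log2 fold change was −0.69 (adjusted p = 0.0418). Gpx1, the main cytosolic enzyme, was at 895, 634 and 571 CPM in LC and at 597, 629 and 669 CPM in IP + LC (log2 fold change −0.15, 95% confidence interval −0.66 to 0.36, edgeR adjusted p = 0.664). Gpx8 was at 193, 108 and 120.3 CPM in LC and at 125, 98.6 and 86.4 CPM in IP + LC (log2 fold change −0.43, edgeR adjusted p = 0.27). For both genes LC replicate 1 was the highest tumor, and without it the log2 fold changes were 0.08 for Gpx1 and −0.14 for Gpx8.

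The peroxiredoxins split between Prdx6 and Prdx5. Prdx6, which also has phospholipase activity and takes part in surfactant turnover in the lung, was at 1100, 982 and 1347 CPM in LC and at 607, 471 and 565 CPM in IP + LC. It was 2.09-fold lower (log2 fold change −1.06 ± 0.22 SE, edgeR adjusted p = 0.0085). Prdx5, found in mitochondria, peroxisomes and cytosol, was at 568, 366 and 342 CPM in LC and at 682, 806 and 695 CPM in IP + LC. It was 1.72-fold higher (edgeR adjusted p = 0.0428), and the call was lost without LC replicate 2 or 3 (adjusted p = 0.157 and 0.131) and without IP + LC replicate 1 or 2 (adjusted p = 0.104 and 0.152). The other four tested peroxiredoxins did not pass. Prdx1 of the cytosol was at 1130, 909 and 972 CPM in LC and at 1030, 972 and 1133 CPM in IP + LC. Prdx2, its cytosolic relative, was at 184, 132 and 136 CPM in LC and at 173, 155 and 174 CPM in IP + LC. Prdx3 of mitochondria was at 67.2, 97.2 and 84.7 CPM in LC and at 101, 74.1 and 92.9 CPM in IP + LC. In all of these the ranges of the groups overlapped. Prdx4 of the endoplasmic reticulum was at 232, 117 and 110.2 CPM in LC and at 132, 158 and 142 CPM in IP + LC, with LC replicate 1 the highest of the 6 tumors. The log2 fold changes of these 4 genes lay between −0.07 and 0.16, with edgeR adjusted p from 0.606 to 0.893. Without LC replicate 1, Prdx2 (log2 fold change 0.33, adjusted p = 0.0658) and Prdx4 (0.36, adjusted p = 0.0582) were called higher, which made 3 higher peroxidases. In that fit 6691 of 11748 genes were called, 49.7% of them higher. No peroxidase was higher without LC replicate 2, LC replicate 3, IP + LC replicate 1 or IP + LC replicate 2. Those fits called 2585 of 11530, 3039 of 11517, 2660 of 11768 and 2265 of 11787 genes. Of these calls 39.3%, 42.4%, 40.9% and 39.6% were higher. Gpx5 and Prdx6b had at most 6 UMIs in any tumor and were not tested.

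**Figure D3:**
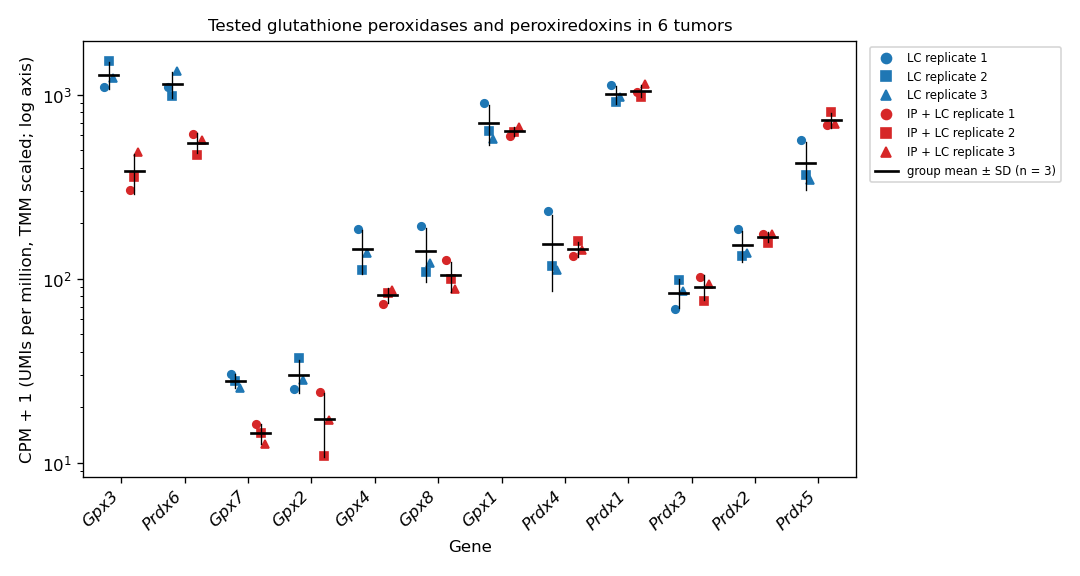
CPM + 1 on a log axis for the 12 tested peroxidases and peroxiredoxins, ordered by log2 fold change, with 1 point per tumor (blue LC, red IP + LC, shape for replicate) and bars for the mean ± SD of 3 tumors. Gpx3 at the left has the widest gap between the groups, and Prdx5 at the right is the gene whose red points all lie above the blue points.

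The transferases and the NRF2-induced genes were also summed in each tumor. The 16 tested transferases summed to 2473, 3280 and 2964 CPM in LC and to 987.6, 754.7 and 1107 CPM in IP + LC. The 11 NRF2-induced genes summed to 1527, 1115 and 1024 CPM in LC and to 1639, 1607 and 1600 CPM in IP + LC. Txn1 made up most of the sum in LC replicate 1, and without this gene, a choice made after the values were seen, the other 10 summed to 533.9, 578.9 and 526.2 CPM in LC and to 752.6, 737.8 and 822.0 CPM in IP + LC, with LC replicate 1 among the LC tumors. The transferase sum divided by the NRF2-induced sum was 1.62, 2.94 and 2.90 in LC and 0.603, 0.470 and 0.692 in IP + LC. Without Txn1 it was 4.63, 5.67 and 5.63 in LC and 1.31, 1.02 and 1.35 in IP + LC. The lowest log2 fold change among the NRF2-induced genes, −0.38 for Gclc, was above that of 14 of the 16 transferases. The differences within each gene are drawn with their intervals in the plot of fold changes.

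**Figure D4:**
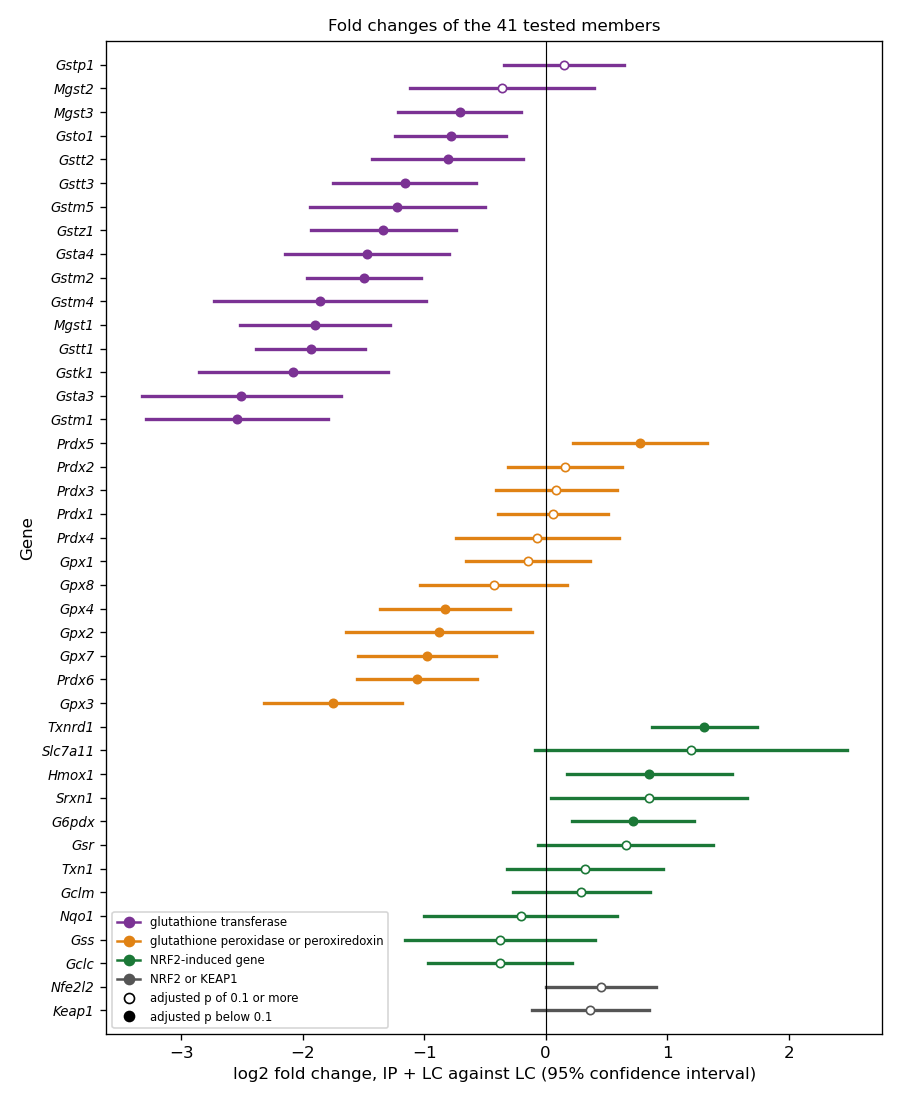
Log2 fold change of IP + LC against LC (x axis) for the 41 tested members (y axis), with 95% confidence intervals as lines, colored by role. Filled points passed an edgeR adjusted p of 0.1 and open points did not. The filled purple points of the transferases lie between −2.54 and −0.71, and the filled green points of the NRF2-induced genes lie between 0.72 and 1.31.

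Other known NRF2 targets were called in both directions. Of 40 such genes outside the member list, 36 were tested, 6 were higher and 12 lower, against 16.8% higher and 19.6% lower among all genes tested, so the share of higher genes was near that of all genes. They had a median log2 fold change of −0.14. The largest decreases were in Aldh3a1, an aldehyde dehydrogenase (7.22-fold lower, edgeR adjusted p = 0.00365), Cyp2a5, a cytochrome P450 (6.25-fold lower, adjusted p = 0.00382), and Akr1c14, an aldo-keto reductase (5.82-fold lower, adjusted p = 0.0018). Aldh3a1 was at 22.4, 48.6 and 39 CPM in LC and at 2.9, 2.92 and 10.2 CPM in IP + LC. The largest increases were in Trib3, a stress-induced pseudokinase (3.27-fold higher, edgeR adjusted p = 0.0654), Akr1b8, an aldo-keto reductase (2.04-fold higher, adjusted p = 0.0172), and Abcc4, an exporter (2-fold higher, adjusted p = 0.0596). Trib3 was at 29.3, 5.48 and 4.24 CPM in LC and at 42, 39.7 and 19.6 CPM in IP + LC, so that LC replicate 1 lay within the IP + LC range.

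Of 34 other genes of glutathione metabolism, 22 were tested, 3 were higher and 3 lower, against 16.8% higher and 19.6% lower among all genes tested, with a median log2 fold change of 0.21. Dpep1, a dipeptidase of glutathione breakdown, was 7.83-fold lower (edgeR adjusted p = 0.00161), Ltc4s, leukotriene C synthase, 4.77-fold lower (adjusted p = 0.00979) and Glo1, glyoxalase, 1.66-fold lower (adjusted p = 0.037). Ptges, which makes prostaglandin E, was 2.61-fold higher (edgeR adjusted p = 0.0435), Lap3, a leucine aminopeptidase, 2.55-fold higher (adjusted p = 0.00409) and Glrx, glutaredoxin, 1.66-fold higher (adjusted p = 0.0707). Among 32 other enzymes of thioredoxin, superoxide and hydrogen peroxide, all tested, 2 were higher and 13 lower, with a median of −0.26. The shares over all genes tested were again 16.8% higher and 19.6% lower. Pon1, a paraoxonase, was 10.02-fold lower (edgeR adjusted p = 0.000859), at 60.3, 127 and 120.3 CPM in LC and 9.43, 8.76 and 13.1 CPM in IP + LC. Msrb2, a methionine sulfoxide reductase, was 3.82-fold lower (edgeR adjusted p = 0.00269) and Selenop, a selenium carrier, 3.23-fold lower (adjusted p = 0.00197). The higher genes were Sesn2, a stress-induced sestrin (3.05-fold, edgeR adjusted p = 0.0121), and Sephs2, an enzyme of selenium metabolism (1.92-fold, adjusted p = 0.0636).

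Markers of the normal lung moved with the transferases. The shares over all genes tested, for the counts that follow, were 19.6% lower and 16.8% higher. For airway epithelium, 11 of 12 markers were tested and all 11 were lower, with a summed level, here and for the lists that follow LC first, of 50320 to 59300 CPM in LC and 3638 to 7504 CPM in IP + LC. The median log2 fold change of these markers was −3.07, and Scgb1a1 was 9.31-fold and Cyp2f2 8.37-fold lower (edgeR adjusted p = 0.00113 and 0.00221). For type 2 alveolar cells 11 of 12 markers were lower, with sums of 38900 to 48770 CPM and 7378 to 12880 CPM, among them Sftpc at 4.33-fold and Sftpa1 at 5.82-fold lower (edgeR adjusted p = 0.00258 and 0.00137). For type 1 alveolar cells 6 of 8 were lower, with sums of 2278 to 4690 CPM and 902.4 to 1340 CPM, including Ager at 3.59-fold and Hopx at 4.87-fold lower (edgeR adjusted p = 0.0039 and 0.00225). For endothelium 12 of 12 were lower (2542 to 4394 CPM and 625.7 to 880.1 CPM), including Calcrl and Tmem100, and for alveolar macrophages 9 of 10 (1860 to 2299 CPM and 318.1 to 641.7 CPM), including Chil3 and Fabp4. For smooth and cardiac muscle all 9 tested were lower (1276 to 2499 CPM and 329.8 to 583.8 CPM), including Acta2 and Actc1. Fibroblast markers were divided, with 8 of 11 lower, including Inmt, and 2 higher, Col1a1 and Col1a2, while Col3a1 was not called (3582 to 5111 CPM and 2018 to 2206 CPM). All 4 tested erythroid markers were lower, Hbb-bs and Hba-a1 among them (1743 to 7433 CPM and 769.3 to 2146 CPM), as were 4 of 7 neutrophil markers, including S100a9 and S100a8 (1011 to 2114 CPM and 213.2 to 368.1 CPM). Of the B cell markers 5 of 8 were lower (1441 to 1636 CPM and 518.4 to 1436 CPM), not including Igkc and Ighm. Of the T cell markers 1 of 9 tested was lower, Cd2, while Trbc2 was not called (215.2 to 289.9 CPM and 176.9 to 323.1 CPM). None of 5 hepatocyte markers found in the tables exceeded 3 UMIs in any tumor.

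Markers of proliferation and of macrophages moved in the other direction. Their sums in LC replicate 1 lay nearer to those of IP + LC, while single genes did not all do so. Over all genes tested, 16.8% were called higher. Of the proliferation genes 8 of 12 were higher and none was lower, with Top2a 7.79-fold higher (edgeR adjusted p = 0.0016), at 102, 33.7 and 36.4 CPM in LC and 453, 423 and 401 CPM in IP + LC, and Ube2c not called (adjusted p = 0.138). Of the macrophage markers 5 of 10 were higher, C1qa among them (edgeR adjusted p = 0.0896) but not Lgals3, and their sum was 3261, 1423 and 1117 CPM in LC and 3296 to 3997 CPM in IP + LC. The share of these cell types in the differences of the transferases, peroxidases and NRF2-induced genes was not tested.

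**Figure D5:**
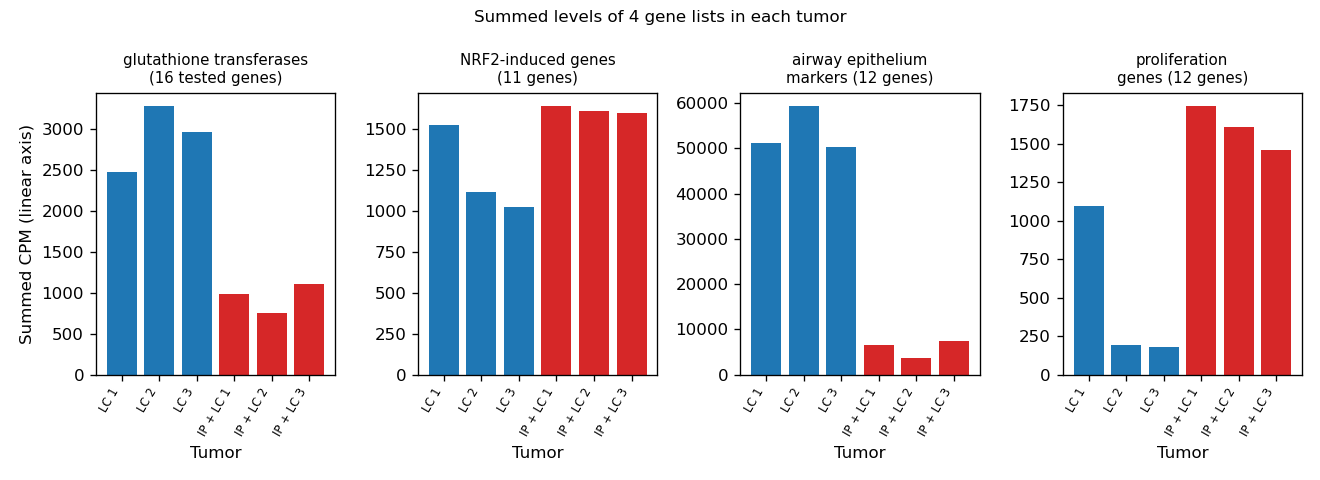
Summed CPM per tumor on a linear axis from 0 for the 16 tested transferases, the 11 NRF2-induced genes, 12 airway epithelium markers and 12 proliferation genes (blue LC, red IP + LC). Transferases and airway markers are high in all 3 LC tumors, while for NRF2-induced and proliferation genes LC replicate 1 stands above the other LC tumors, for the NRF2-induced genes through Txn1.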

How the data were processed

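RNA was measured in tumor tissue of 3 LC and 3 IP + LC samples with barcoded oligo-dT primers that tag each molecule near its 3′ end with a unique molecular identifier (UMI). The deposited values were UMI counts per gene, without normalization, in 1 table per sample. The authors extracted UMIs with UMI-tools 1.1.1, trimmed with Trim Galore 0.6.7, aligned to GRCm38 with HISAT2 2.2.1, assigned reads with featureCounts 2.0.1 and counted every different UMI per gene; the submitters' processing notes also name DESeq2. The annotation release, the use of the strand and the handling of reads with several hits are not given in the sources used here. UMIs remove PCR copies, and 3′ counts do not scale with transcript length. Sums over genes are sums of CPM, in which genes with many UMIs weigh most. Libraries held 592733 to 1631066 UMIs, and 3 UMIs equal 1.75 to 5.17 CPM.

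Counts were fitted in R 4.3.3 with edgeR 4.0.16: filterByExpr (minimum count 10, minimum total 15), which left 11240 genes, TMM scaling, the two-sided quasi-likelihood test of IP + LC against LC without a block, and Benjamini-Hochberg adjustment over all genes tested with a limit of 0.1, which is the limit the study's methods state. CPM values are after TMM scaling. Members were named with per-tumor values when called or when their mean over 6 tumors was at least 50 CPM, other tested members by range, and untested members by their highest count; from other pathway lists up to 3 genes per direction and from marker lists the 2 with the highest mean CPM were named. A few values outside this rule (UMI counts of Gstm4 and Slc7a11, the collagens, the row of Gpx4-ps2) were chosen after their values were seen. The members and lists were chosen with earlier results of these data known. Alternatives were other scalings, filters, tests (DESeq2 1.42.0, limma voom 3.58.1), a stricter limit, a replicate block and each tumor left out; summing near-identical rows and leaving Txn1 out of a sum were added after seeing the data. Near-identical transcripts were matches of at least 81 bases at 95% identity (blastn 2.17.0+) in GENCODE M21. In the last 500 bases 5 tested members had such a match, namely Gstm1, Gstp1, Gstt2, Gpx2 and Gpx4. The fitting procedure was tested on simulated data. Replicate numbers were checked for pairing. Deviations of same-numbered samples correlated at 0.02, −0.11 and 0.10, and those of differently numbered samples at −0.13 to 0.12. This gave no sign of pairing, but so few correlations cannot decide whether the numbers pair the samples.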

Additional observations from a re-analysis of the deposited data

How the results depend on the processing

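Direction and call of the 14 lower transferases were held by 11 genes in every alternative that gave them a value (Gstm4 was not tested with at least 10 UMIs in every library, where 13 of 15 transferases were lower); Gstt2, Gsto1 and Mgst3 kept their sign and lost the call in some. The count of lower transferases was 11 to 14 and of lower peroxidases 3 to 5 over the fits without 1 tumor each. The count of higher NRF2-induced genes, 3 as reported, was 6 with library size only, 6 with no filter beyond 1 UMI, 5 with limma voom and 1 to 6 without 1 tumor each. In those fits 0 to 1 NRF2-induced genes were lower and 0 to 3 peroxidases higher, and all calls in the series went from 4088 to between 2265 and 6691. The largest of these counts came without LC replicate 1. Of all calls, 46.1% were higher, and 58.3% with library size only, a scaling that moved the median of all genes from 0.02 to 0.18.

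Signs of log2 fold changes turned for some genes that were not called in the reported fit. Prdx1 turned with upper quartile scaling (−0.008) and without LC replicate 2 (−0.010). Prdx4 turned with library size only (0.071), no filter (0.042), limma voom (0.015) and the replicate block (0.001). It also turned without IP + LC replicate 1 (0.009) and without LC replicate 1 (0.356), where it was called higher (edgeR adjusted p = 0.0582). Without LC replicate 1, Gpx1 (0.077), Prdx3 (−0.026) and Mgst2 (0.076) turned as well. Over the fits without 1 tumor each, Prdx1 ranged from −0.010 to 0.162, Prdx4 from −0.265 to 0.356, Gpx1 from −0.284 to 0.077, Prdx3 from −0.026 to 0.235 and Mgst2 from −0.630 to 0.076. The cause was not tested. With the replicate block, 3410 genes of the series were called, 13 transferases were lower and none higher, 3 NRF2-induced genes were higher and none lower, and 1 peroxidase was higher and 4 lower; Gstt2 and Gpx2 lost their call. Since the check of the replicate numbers gave no sign of pairing, this fit is given here only. Depth limits the 11 untested members, which reached at most 9 UMIs.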
